A study of Homo sapiens with 70 samples.

Results

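The genes described here are the ligands, receptors and adaptors of the interleukin-1 (IL1) family that were measured in all 3 RNA-seq experiments of the study, chosen by name: the ligands *IL1A*, *IL1B*, *IL33* and *IL36B*, the receptor antagonist *IL1RN*, the receptors *IL1R1*, *IL1RAP* and *IL1RL1*, and the receptor-associated kinases *IRAK1* and *IRAK2*. They are 10 of the 44503 genes of each count table, and all 10 were found by symbol in every table. IL1α and IL1β, the products of *IL1A* and *IL1B*, bind the same receptor, IL1R1, which then recruits the accessory protein IL1RAP and passes the signal through MYD88 and the IRAK kinases to NF-kB. IL1β is made as a precursor that is cleaved before release, whereas IL1α is active in its uncleaved form and can remain on the cell surface. IL1RN competes for the same receptor without activating it. IL33 signals through IL1RL1 (also called ST2) paired with IL1RAP, and IL36B through another receptor paired with IL1RAP. In senescent fibroblasts, IL1 signalling is known as an upstream driver of the inflammatory secretory programme (the senescence-associated secretory phenotype, SASP), which is turned on through NF-kB and C/EBPβ.

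RNA-seq counts of 70 libraries in 3 experiments were used, and each experiment has its own table and its own scaling, so levels were compared only within a table. All IMR90 cells, normal human fetal lung fibroblasts grown in low oxygen, carried the pLNCX2 ER:HRAS G12V vector, whose product is activated by 4-hydroxytamoxifen (4OHT). In the first experiment, Grow cells (day 0) and OIS cells (oncogene-induced senescence, 6 days in 100 nM 4OHT) carried the empty pMSCV miR vector, and Grow-shA1 and OIS-shA1 cells the same vector with an shRNA against *HMGA1*, with 8 libraries in each group. In the second, every group carried 2 vectors and had 5 libraries: Grow-v-v (day 0) and OIS-v-v cells the empty pSuper and pMSCV miR vectors, OIS-shCEBPB cells pSuper with an shRNA against *CEBPB*, OIS-shp53 cells pMSCV miR with one against p53, and OIS-shCEBPB-shp53 cells both, all senescent groups after 6 days in 100 nM 4OHT. The third compared 7 libraries of H1299 cells, a non-small cell lung carcinoma line kept in atmospheric oxygen, with 6 of H1299-shA1 cells. The labels call the samples biological replicates without naming separate cultures or donors, so the p-values measure the spread between these libraries, which come from 1 line each.

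Total counts lay between 13904974 and 24890797 in 69 libraries and were 1903607 in OIS replicate 4. In the second experiment, replicates 1 to 3 stood apart from replicates 4 and 5 in every group, along the first principal component of the deviations from the group means (42.9% of their variance). The labels name no batch for these sets, so the effects of members tested in both sets that were called different between them are given beside the pooled values. The levels of 2 knock-down targets were lower in the knocked-down groups. *HMGA1* was at 482 CPM in Grow and 34.7 in Grow-shA1, 733 in OIS and 59.6 in OIS-shA1, and 1888 in H1299 and 379 in H1299-shA1. *CEBPB* was at 295.3 CPM in OIS-v-v, 35.5 in OIS-shCEBPB and 32.55 in OIS-shCEBPB-shp53. CPM are counts scaled to 1000000 counts of TMM-scaled library size. All 8 fibroblast markers checked were at 1 CPM or more in every IMR90 group, and their summed level was lower in OIS (5531 to 6835 CPM) than in Grow (37500 to 46790 CPM). Of 7 markers of monocytes and macrophages, cells known for high IL1 output, *PTPRC*, *CD14*, *LYZ*, *AIF1* and *CD163* stayed under 1 CPM in every group. The summed level of all 7 such markers was 1.24 to 2.05 CPM in Grow and 3.34 to 5.79 CPM in OIS, and in both *CSF1R* alone reached 1 CPM. It was 7.84 to 12.5 CPM in H1299 and 10.2 to 12.3 CPM in H1299-shA1, where *ITGAM* alone reached 1 CPM. The part of these markers in the results was not tested. H1299 cells had 2 and H1299-shA1 cells 1 of the 8 fibroblast markers at 1 CPM or more. Of 5 epithelial markers, *EPCAM*, *CDH1* and *KRT19* were under 1 CPM in both groups and the other 2 at 1 CPM or more, with summed levels of 814.1 to 1138 CPM in H1299 and 630.4 to 716 CPM in H1299-shA1. In such bulk samples, fewer cells that express a gene and less of its RNA per cell cannot be told apart.

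The 2 agonist genes are neighbours on chromosome 2 (hg19, *IL1A* ENSG00000115008 at chr2:113531492-113542167 and *IL1B* ENSG00000125538 at chr2:113587328-113594480, both on the minus strand), and the ratio of their counts shifted with the knock-down of *CEBPB*. Their promoters are shown here for that reason, from RefSeq on GRCh38.p14, 5′ to 3′ on the gene's strand, from 250 bases before to 50 after the start. Capitals mark matches to the C/EBP motif TTNNGNAA and the AP-1 motif TGANTCA, searched on both strands.

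*IL1A*, first annotated start, chr2:112784444-112784743, minus strand: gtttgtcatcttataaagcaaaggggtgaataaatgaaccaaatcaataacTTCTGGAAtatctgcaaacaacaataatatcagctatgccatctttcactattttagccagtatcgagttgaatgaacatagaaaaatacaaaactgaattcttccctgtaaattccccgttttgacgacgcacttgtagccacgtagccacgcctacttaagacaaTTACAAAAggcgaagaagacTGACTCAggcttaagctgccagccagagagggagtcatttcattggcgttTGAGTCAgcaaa

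*IL1B*, chr2:112836730-112837029, minus strand: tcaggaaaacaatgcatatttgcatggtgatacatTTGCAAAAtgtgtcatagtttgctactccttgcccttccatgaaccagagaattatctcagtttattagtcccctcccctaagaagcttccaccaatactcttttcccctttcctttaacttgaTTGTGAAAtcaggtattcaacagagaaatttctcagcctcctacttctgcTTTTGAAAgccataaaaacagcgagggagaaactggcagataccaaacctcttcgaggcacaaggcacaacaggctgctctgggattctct

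The *IL1A* window holds 2 C/EBP matches, at -199 and -32 from the start, and 2 AP-1 matches, at -12 and 38. Its matches do not overlap each other. The *IL1B* window holds 3 C/EBP matches, at -215, -91 and -41, and 0 AP-1 matches. Neither window holds a match to the 10-letter NF-kB consensus. Among all 35116 promoters of the same table, 36.8% hold a C/EBP, 7.71% an AP-1 and 5.91% an NF-kB match, so a C/EBP match is common. Promoters were given for 9 of the 10 genes, 17 in all. These are letters in a window, and no binding was measured.

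The first question was which of these genes change when IMR90 cells become senescent. Both agonist genes, *IL1RL1*, *IL36B* and *IRAK2* were higher in every OIS library than in any Grow library, while the genes of the signalling IL1 receptor, *IL1R1* and *IL1RAP*, moved by 1.12-fold and 1.21-fold. *IL1A* lay between 34.3 and 73.6 CPM in Grow (median 61.3) and between 261.9 and 366.1 CPM in OIS (median 298.1). The groups are far apart, and their means were 57.3 ± 12.6 and 304.6 ± 32.6 CPM (SD, n = 8 each), which is a log2 fold change equal to 2.44 (standard error 0.10, edgeR adjusted p = 1.62e-18). *IL1B* had a wider spread in Grow, from 290.5 to 1347 CPM (median 649.2), than in OIS, from 9624 to 10910 CPM (median 10350). In OIS it made up 1.12% of all counts on average and, per exon length, ranked 3 of 44503 genes, against rank 130 in Grow. *IL1A* ranked 170 in OIS and 1767 in Grow.

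The other ligand genes were low in both states and came on from almost nothing. *IL36B* (ENSG00000136696, chr2:113779668-113810444) had 1 count in all Grow libraries together and between 4 and 55 counts in each OIS library, the 4 counts in the shallow replicate 4. Its pooled counts, 248 against 1, give a 257-fold ratio with a 95% exact interval from 45.8 to 10200 for counting error alone. For *IL1RN* (ENSG00000136689, chr2:113864791-113891590), the antagonist, the Grow libraries held 3 counts in all and the OIS libraries 205, a ratio of 70.9 (95% exact interval 23.9 to 347). *IL33* (ENSG00000137033, chr9:6215805-6257983), an alarmin that acts through IL1RL1, had 19 and 113 counts, a ratio of 6.17 (95% exact interval 3.78 to 10.6). Neither *IL1RN* nor *IL33* passed the filter on low counts. With all 4 groups in 1 fit both were called, at log2 fold changes of 5.73 (standard error 0.48, edgeR adjusted p = 3.45e-14) and 2.57 (edgeR adjusted p = 4.45e-07). Without the shallow OIS replicate 4, *IL1RN* entered the 2-group fit, at 5.80. For both, no Grow library reached the lowest OIS library. Even so, *IL1RN* counts per length were 0.0128% of those of *IL1A* and *IL1B* together in OIS.

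Among the receptors, the IL33 receptor gene *IL1RL1* (ENSG00000115602, chr2:102927962-102968497) rose from between 0.877 and 1.8 CPM (median 1.30) in Grow to between 7.77 and 14.7 CPM (median 10.6) in OIS. The groups do not overlap, and the log2 fold change was 3.05 (standard error 0.15, edgeR adjusted p = 8.95e-17). *IL1R1* (ENSG00000115594, chr2:102681004-102796326) lay between 61.9 and 84.3 CPM (median 76.8) in Grow and between 58.4 and 81.0 CPM (median 66.0) in OIS. Its groups overlap and it fell slightly, at a log2 fold change equal to -0.17 (standard error 0.06, edgeR adjusted p = 0.0184), which turned to 0.02 when libraries were scaled by their sizes alone, a scaling that moved the median of all genes from 0.03 to 0.22. *IL1RAP* (ENSG00000196083, chr3:190231840-190375843), the co-receptor, overlapped as well, between 38.1 and 46.2 CPM (median 42.5) in Grow and between 43.2 and 55.8 CPM (median 51.2) in OIS. It rose by 0.27 on the log2 scale (standard error 0.06, edgeR adjusted p = 2.02e-04). Of *IL1R1*, *IL1RL1* and *IRAK1*, 11, 95 and 61 exon bases are shared with other genes, and reads over exons of both genes were left uncounted in the *HMGA1* tables.

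The kinases differed in size of change. *IRAK2* (ENSG00000134070, chr3:10206549-10285427), a kinase of the IL1 receptor complex, lay between 42.4 and 64.5 CPM (median 54.0) in Grow and between 116.8 and 139.4 CPM (median 131.5) in OIS. No OIS library came near the Grow range, and the log2 fold change was 1.34 (standard error 0.06, edgeR adjusted p = 6.28e-18). *IRAK1* (ENSG00000184216, chrX:153275951-153285431), a kinase recruited to the receptor with MYD88, lay between 87.0 and 106.1 CPM (median 94.8) in Grow and between 97.3 and 146.1 CPM (median 129.5) in OIS, overlapping ranges with a log2 fold change equal to 0.43 (standard error 0.06, edgeR adjusted p = 2.68e-07). Of the 8 members tested, 7 were called higher and 1 lower at an edgeR adjusted p under 0.05. Among the 7, *IL36B* had 1 count in Grow and passed the filter only through OIS, so its call could only be higher. Of all 13304 genes tested, 74.8% were called, 38.8% higher and 35.9% lower, so that being called is common in this comparison. The groups did not overlap for 7 of the 10 members, against 43.7% of all genes tested. The 7 include *IL1RN* and *IL33*, which did not pass the filter. The median log2 fold change was 1.89 over the 8 members tested, *IL36B* included, and 0.03 over all genes.

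**Figure D1:**
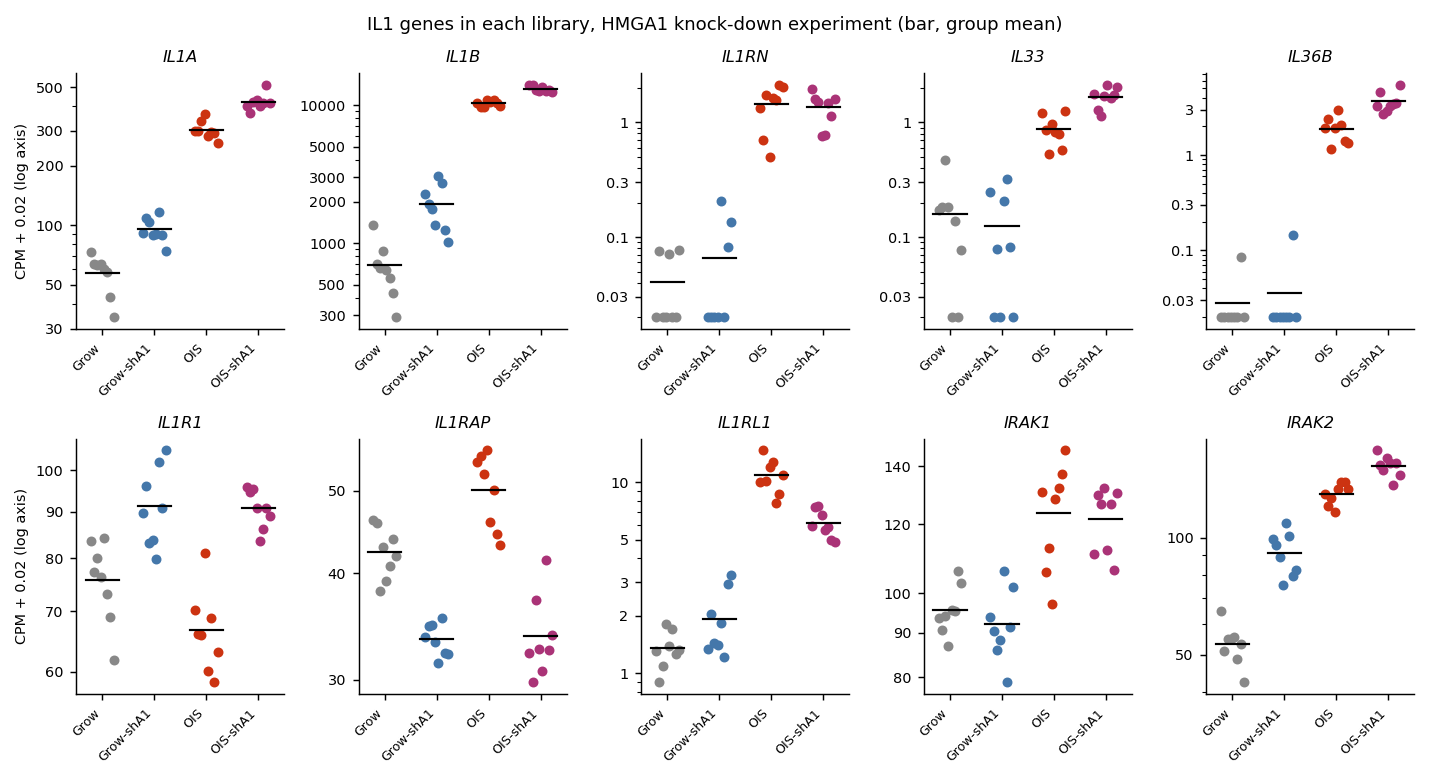
Level of each of the 10 genes in every library of the first experiment, on a log axis of CPM + 0.02, for Grow, Grow-shA1, OIS and OIS-shA1. Each point is 1 library and each bar the mean of 8 libraries. *IL1A*, *IL1B*, *IL1RN*, *IL33*, *IL36B*, *IL1RL1* and *IRAK2* are higher in every OIS than in every Grow library, while *IL1R1* and *IL1RAP* overlap.

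The same comparison in the second experiment, OIS-v-v against Grow-v-v, had other vectors and other libraries. *IL1A* was at 29.5, 31.2, 32.1, 14.7 and 12.9 CPM in Grow-v-v replicates 1 to 5 and at 342, 322, 326, 138 and 130 CPM in OIS-v-v. Replicates 4 and 5 were lowest in both groups, and the groups do not overlap (log2 fold change 3.39, standard error 0.36, edgeR adjusted p = 9.89e-06). *IL1B* was at 651, 717, 739, 569 and 832 CPM in Grow-v-v and at 6246, 5958, 6015, 8601 and 8710 CPM in OIS-v-v, where replicates 4 and 5 were highest (log2 fold change 3.35, standard error 0.16, edgeR adjusted p = 2.02e-08). *IRAK2* went from 51.2 ± 4.85 to 108.6 ± 5.32 CPM (SD, n = 5 each) and *IL1RAP* from 23.1 ± 3.99 to 35.4 ± 8.48 CPM, both without overlap, with log2 fold changes of 1.10 (edgeR adjusted p = 4.81e-07) and 0.63 (edgeR adjusted p = 0.00626). *IL1R1* was called higher here, at 0.49 (standard error 0.17, edgeR adjusted p = 0.0303), but not with the replicate number as a block (edgeR adjusted p = 0.0608), and not without Grow-v-v replicate 4, OIS-v-v replicate 4 or OIS-v-v replicate 5. In the first experiment it was called lower.

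In all, 5 of the 6 members tested were called, each of them higher, against 45.8% of 13344 genes called (22.7% higher and 23.2% lower, 49.7% with the block), and 6 of 10 did not overlap, against 35%. Those without overlap include *IL1RN* and *IL36B*, which were not tested, while the 35% covers genes tested. *IRAK1* was the member tested but not called, at 0.14 (2 standard errors either side, -0.09 to 0.37). The other 4 did not pass the filter on low counts. *IL36B* had 0 counts in all 5 Grow-v-v libraries, which allows up to 0.0359 CPM over the group, and 9 to 28 counts in each OIS-v-v library, so that its level was at least 29.5-fold higher. *IL1RN* had 5 counts in Grow-v-v and 138 in OIS-v-v (ratio 26.5, 95% exact interval 11.1 to 83.0). *IL33* overlapped, with 16 counts in Grow-v-v and 51 in OIS-v-v (ratio 3.06, 95% exact interval 1.72 to 5.76). *IL1RL1* overlapped as well, with 7, 4, 13, 2 and 11 counts in Grow-v-v and 8, 4, 4, 58 and 39 in OIS-v-v, high only in OIS-v-v replicates 4 and 5. The size of the senescence effect differed between replicates 1 to 3 and replicates 4 and 5 for *IL1R1* (0.09 and 1.11, a log2 difference of -1.02, edgeR adjusted p = 2.33e-04), *IL1RAP* (0.26 and 1.14, difference -0.87, edgeR adjusted p = 0.00404), *IRAK1* (0.37 and -0.19, difference 0.57, edgeR adjusted p = 9.78e-04) and *IL1B* (3.12 and 3.63, difference -0.51, edgeR adjusted p = 0.0335), in a test that called 29.5% of all genes.

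The next question was what the knock-down of *HMGA1*, a chromatin architectural protein, does to these genes in growing cells. *IL1A*, *IRAK2* and *IL1B* were higher with the knock-down already at day 0. *IL1A* lay between 74.1 and 117.2 CPM in Grow-shA1 (median 91.1), above the highest Grow library, at a log2 fold change equal to 0.74 (standard error 0.11, edgeR adjusted p = 9.65e-06). *IRAK2* lay between 75.6 and 109.1 CPM (median 92.4), again above all Grow libraries, at 0.79 (standard error 0.07, edgeR adjusted p = 5.91e-09). *IL1B* reached 1011 to 3052 CPM (median 1848), which overlaps Grow at its lower end, and ranked 27 of 44503 genes per length. *IL1R1* rose by 0.27 (standard error 0.06, edgeR adjusted p = 0.00137), from 75.7 ± 7.59 to 91.3 ± 9.14 CPM (SD, n = 8 each) with overlap. *IL1RAP* was the member that fell, from 38.1 to 46.2 CPM in Grow to 31.4 to 35.5 CPM in Grow-shA1 (median 33.4), without overlap, at -0.34 (standard error 0.05, edgeR adjusted p = 5.60e-06).

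*IL1RL1* and *IRAK1* did not pass, at 0.53 (standard error 0.22, edgeR adjusted p = 0.0737, but called without Grow-shA1 replicate 6) and -0.05 (standard error 0.05, edgeR adjusted p = 0.488). *IL1RN*, *IL33* and *IL36B* had 6, 14 and 2 counts in all Grow-shA1 libraries together, too few to be tested. Of 7 members tested, 4 were called higher and 1 lower, against 29.9% of 13072 genes called (14.8% higher and 15.1% lower), and 3 of 10 did not overlap, against 7.64%.

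In senescent cells, the ligand genes rose further with the knock-down and the receptor genes split. *IL1A* lay between 368.9 and 513 CPM in OIS-shA1 (median 413.8), above the OIS maximum of 366.1, at a log2 fold change equal to 0.47 (standard error 0.06, edgeR adjusted p = 5.37e-07). *IL33* went from between 0.516 and 1.23 CPM in OIS (median 0.819) to between 1.12 and 2.11 CPM in OIS-shA1 (median 1.69), a log2 fold change equal to 0.95 (standard error 0.21, edgeR adjusted p = 9.18e-04). *IL36B* went from between 1.15 and 2.93 CPM (median 1.91) to between 2.64 and 5.42 CPM (median 3.36), also 0.95 (standard error 0.19, edgeR adjusted p = 2.40e-04). For both, the lowest OIS-shA1 libraries fall inside the OIS range. *IL1RN* did not follow the agonists, with between 0.477 and 2.10 CPM in OIS (median 1.57) and between 0.733 and 1.93 CPM in OIS-shA1 (median 1.46), at -0.20 (standard error 0.23, edgeR adjusted p = 0.541).

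*IL1R1* lay between 83.6 and 95.9 CPM in OIS-shA1 (median 90.8), above every OIS library, at 0.47 (standard error 0.05, edgeR adjusted p = 4.50e-08). Its partner *IL1RAP* lay between 29.8 and 41.4 CPM (median 32.6), below every OIS library, at -0.55 (standard error 0.07, edgeR adjusted p = 2.51e-07). *IL1RL1* was below every OIS library as well, between 4.85 and 7.52 CPM (median 5.86), at -0.82 (standard error 0.12, edgeR adjusted p = 6.16e-06). Thus *IL33* was higher and the genes of both chains of its receptor were lower in OIS-shA1 than in OIS.

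*IRAK2* rose by 0.23 (standard error 0.05, edgeR adjusted p = 2.96e-04), between 136.5 and 168.1 CPM with some overlap, and *IRAK1* stayed between 106.4 and 132.1 CPM, at -0.04 (standard error 0.07, edgeR adjusted p = 0.675). All 10 members were tested, 6 were called higher and 2 lower, against 35.9% of 13327 genes called (18.8% higher and 17.1% lower), and 5 of 10 did not overlap, against 9.29%. Among the 6, *IL33* had not passed the filter on low counts in OIS against Grow. It entered this test with the OIS-shA1 libraries, where it is higher, so the filter favoured a call of higher. The rise of *IL1B* by 1.28-fold was among the 6, with OIS-shA1 libraries from 12450 to 14010 CPM (median 12870), and it was not called with all 4 groups in 1 fit (edgeR adjusted p = 0.125). With a fold of at least 1.5 asked for, 3 members remained called, a count without a background, since the share of all genes under that rule is not given.

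**Figure D2:**
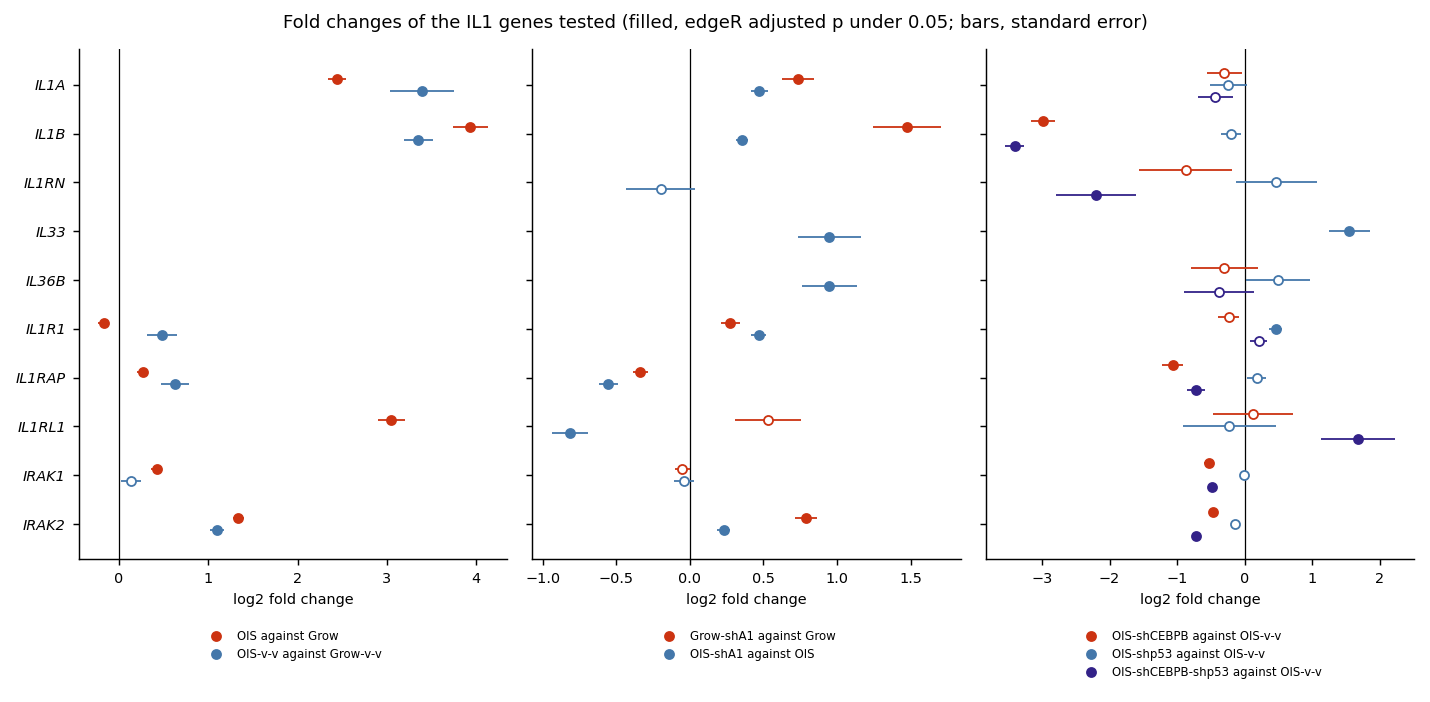
Log2 fold change (x axis) of each gene tested (y axis) in OIS against Grow, Grow-shA1 against Grow, OIS-shA1 against OIS and the second experiment's comparisons with OIS-v-v, in 3 panels, with bars of 1 standard error either side and filled points for genes called by edgeR. *IL36B* in OIS against Grow is left out, since Grow held 1 count. *IL1RAP* lies below 0 under shA1 in both states, and *IL1B* lies near -3 under shCEBPB and under shCEBPB with shp53.

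Whether the knock-down acted differently by state was examined through an interaction term over all 4 groups. It differed for *IL1RL1*, where a log2 fold change of 0.53 in Grow stood against -0.82 in OIS (difference -1.35, standard error 0.25, edgeR adjusted p = 7.34e-05), and for *IRAK2*, with 0.79 against 0.23 (difference -0.56, standard error 0.09, edgeR adjusted p = 7.76e-06). *IL1B* was the third, at -1.12. For *IL1A*, whose log2 fold changes were 0.74 and 0.47, the difference of -0.27 did not pass (standard error 0.13, edgeR adjusted p = 0.154). *IL1RAP* missed the threshold at -0.22 (standard error 0.09, edgeR adjusted p = 0.0586) and passed it under some of the alternatives. For *IL36B* the difference could not be estimated, with a standard error of 4.22. In this test, 3 of 10 members were called, all lower, against 23.6% of 13903 genes (12.2% higher and 11.4% lower).

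Senescence was also compared between knocked-down cells, OIS-shA1 against Grow-shA1. *IL1A* was 4.47-fold and *IL1B* 6.94-fold higher, without overlap (log2 fold changes 2.16 and 2.79, the higher edgeR adjusted p of the pair 8.25e-15). *IL1RN*, *IL33* and *IL36B*, with 6, 14 and 2 counts in all Grow-shA1 libraries, had 193, 235 and 517 in OIS-shA1, ratios of 29.1 (95% exact interval 13.1 to 80.2), 15.2 (8.86 to 28.2) and 234 (64.4 to 1930). *IL1RL1* rose by 1.68 (standard error 0.18, edgeR adjusted p = 2.74e-09), *IRAK2* by 0.76 (standard error 0.06, edgeR adjusted p = 1.48e-11) and *IRAK1* by 0.42 (standard error 0.06, edgeR adjusted p = 1.99e-07). *IL1R1* and *IL1RAP* were not called, with 2 standard errors either side of their log2 fold changes reaching from -0.09 to 0.12 and from -0.08 to 0.16. All 8 members called were higher, and these 8 did not overlap. Of these, *IL1RN*, *IL33* and *IL36B* passed the filter on low counts only through OIS-shA1. Their calls could therefore only be higher. Of 13239 genes tested, 73.1% were called (37.1% higher and 36% lower), and 43.3% did not overlap. This comparison shares its libraries with the 3 before it.

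The second experiment asked what *CEBPB*, which codes for a transcription factor of the inflammatory programme, and p53 contribute in senescent cells, and its 3 knock-down comparisons share the OIS-v-v libraries. With the knock-down of *CEBPB*, the mean of *IL1B* was 901 ± 197.1 CPM (SD, n = 5), against 701.8 ± 98.5 CPM in Grow-v-v, while *IL1A* stayed high. *IL1B* was at 744, 728, 803, 1109 and 1120 CPM in OIS-shCEBPB replicates 1 to 5, against 5958 to 8710 CPM in OIS-v-v. Every library was far below, and *IL1B* fell 7.93-fold (log2 fold change -2.99, standard error 0.17, edgeR adjusted p = 4.12e-07), with -3.01 in replicates 1 to 3 and -2.97 in replicates 4 and 5. *IL1A* was at 198, 188, 188, 232 and 222 CPM in the same libraries, within the OIS-v-v range of 130 to 342 CPM.

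For *IL1A*, the pooled log2 fold change, -0.30 (standard error 0.26, edgeR adjusted p = 0.507) joins opposite values. In replicates 1 to 3 all OIS-shCEBPB libraries were below all OIS-v-v libraries (191.4 ± 5.79 against 330.3 ± 10.8 CPM, SD, n = 3 each, log2 fold change -0.79, edgeR adjusted p = 1.56e-10). In replicates 4 and 5 all were above (226.7 ± 6.99 against 133.6 ± 5.48 CPM, SD, n = 2 each, log2 fold change 0.75, edgeR adjusted p = 4.95e-09). The difference between the sets, -1.53 (standard error 0.08), was itself called (edgeR adjusted p = 1.08e-11), in a test that called 6.47% of all genes. It is OIS-v-v, more than OIS-shCEBPB, that differs between the sets.

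The ratio of *IL1A* to *IL1B* within a library cannot be moved by library scaling. Per length it was 0.0565 on average in OIS-v-v (0.0217 to 0.0798) and 0.339 in OIS-shCEBPB (0.288 to 0.387), higher in all 5 OIS-shCEBPB libraries, of both sets, than in any OIS-v-v library. In OIS-shCEBPB-shp53 it was 0.408 (0.361 to 0.441), in OIS-shp53 0.0520 (0.0357 to 0.0639) and in Grow-v-v 0.0505 (0.0225 to 0.0659). In the first experiment it went from 0.132 in Grow (0.0795 to 0.172) through 0.0797 in Grow-shA1 (0.0433 to 0.107) to 0.0432 in OIS (0.0387 to 0.0507) and 0.0468 in OIS-shA1 (0.0387 to 0.0577), so *IL1B* exceeded *IL1A* in every IMR90 library. These ratios are descriptions without a test.

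**Figure D3:**
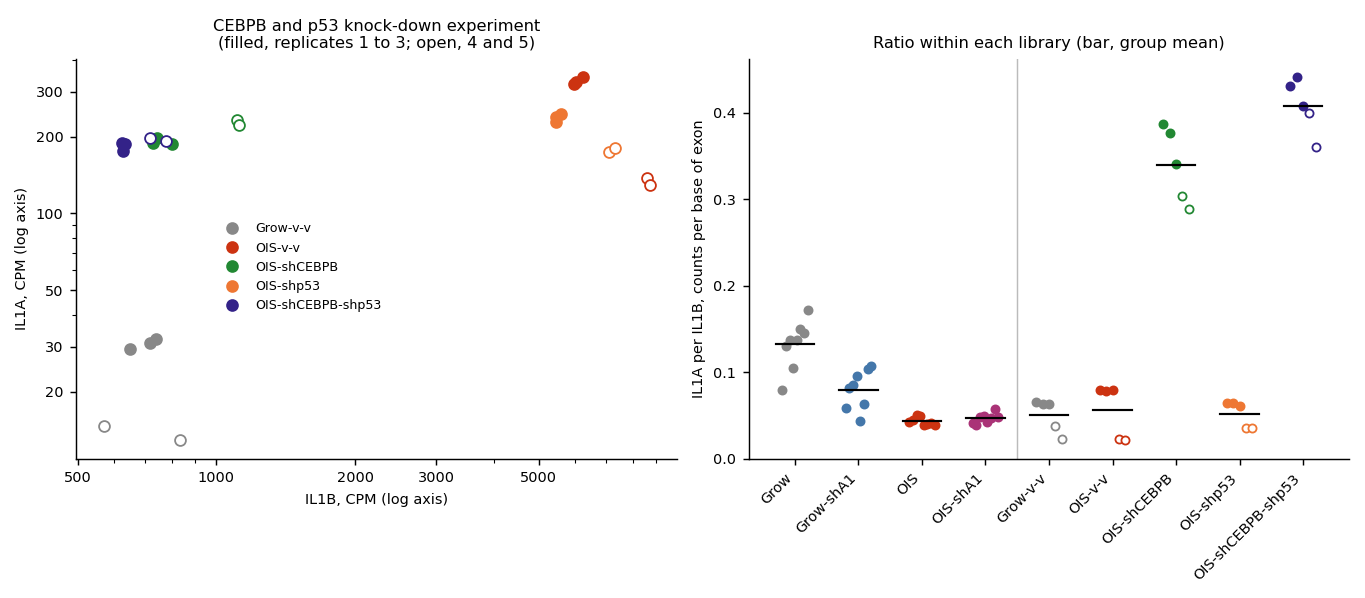
Left, *IL1A* (y axis) against *IL1B* (x axis), both in CPM on log axes, in each library of the second experiment (filled, replicates 1 to 3, and open, replicates 4 and 5). Right, the ratio of *IL1A* to *IL1B* counts per base of exon in each IMR90 library with the group mean as a bar, which is between 0.288 and 0.441 in every library with shCEBPB and at most 0.172 in all others.

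A further 3 members fell with the knock-down of *CEBPB*, none overlapping with OIS-v-v. *IL1RAP* was at 16.8, 15.6, 13.5, 19.9 and 19.5 CPM, against 30.5, 31.2, 29.8, 50.05 and 35.5 CPM in OIS-v-v, and fell 2.09-fold (log2 fold change -1.06, standard error 0.15, edgeR adjusted p = 5.12e-04). *IRAK1* fell from 139.1 ± 8.28 to 96.5 ± 8.20 CPM (SD, n = 5 each), at -0.53 (edgeR adjusted p = 2.72e-04), and *IRAK2* from 108.6 ± 5.32 to 78.5 ± 3.85 CPM, at -0.47 (edgeR adjusted p = 6.48e-05). *IL33* did not pass the filter on low counts, with 4, 9, 10, 12 and 16 counts in OIS-v-v and 2, 3, 2, 1 and 1 in OIS-shCEBPB, a 6.44-fold lower pooled level (95% exact interval 3.14 to 14.9) without overlap. Of 9 members tested, 4 were called, all lower, against 17.1% of 13396 genes (9.09% higher and 8.0% lower), and 5 of 10 did not overlap, against 15%. Those without overlap include *IL33*, which was not tested, while the 15% covers genes tested. Same-numbered libraries deviated together, though pairing by number within a set was not tested. The replicate number was also used as a block. It added *IL1R1* at -0.25 (edgeR adjusted p = 0.00536) and *IL1RN* at -0.99 (edgeR adjusted p = 0.0378), with 31.9% of all genes called. Within replicates 1 to 3 there were 8 members called (32.6% of all genes), and within replicates 4 and 5 there were 7 (24.6%).

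*IL1RL1* and *IL36B* were not called with shCEBPB, at 0.12 (standard error 0.60, edgeR adjusted p = 0.928) and -0.30 (standard error 0.50, edgeR adjusted p = 0.762). *IL1RL1* had the same split as *IL1A* in reverse, at 1.42, 1.24, 1.13, 1.43 and 1.87 CPM in OIS-shCEBPB against 0.452, 0.236, 0.233, 3.13 and 2.34 CPM in OIS-v-v. All OIS-shCEBPB libraries were above OIS-v-v among replicates 1 to 3 and below it among replicates 4 and 5, and the difference between the sets was 2.76 (standard error 0.45, edgeR adjusted p = 3.51e-04). *IL1RN* was lowest in replicates 4 and 5 of both groups, with 38, 33, 43, 17 and 7 counts in OIS-v-v and 20, 22, 43, 2 and 0 in OIS-shCEBPB.

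**Figure D4:**
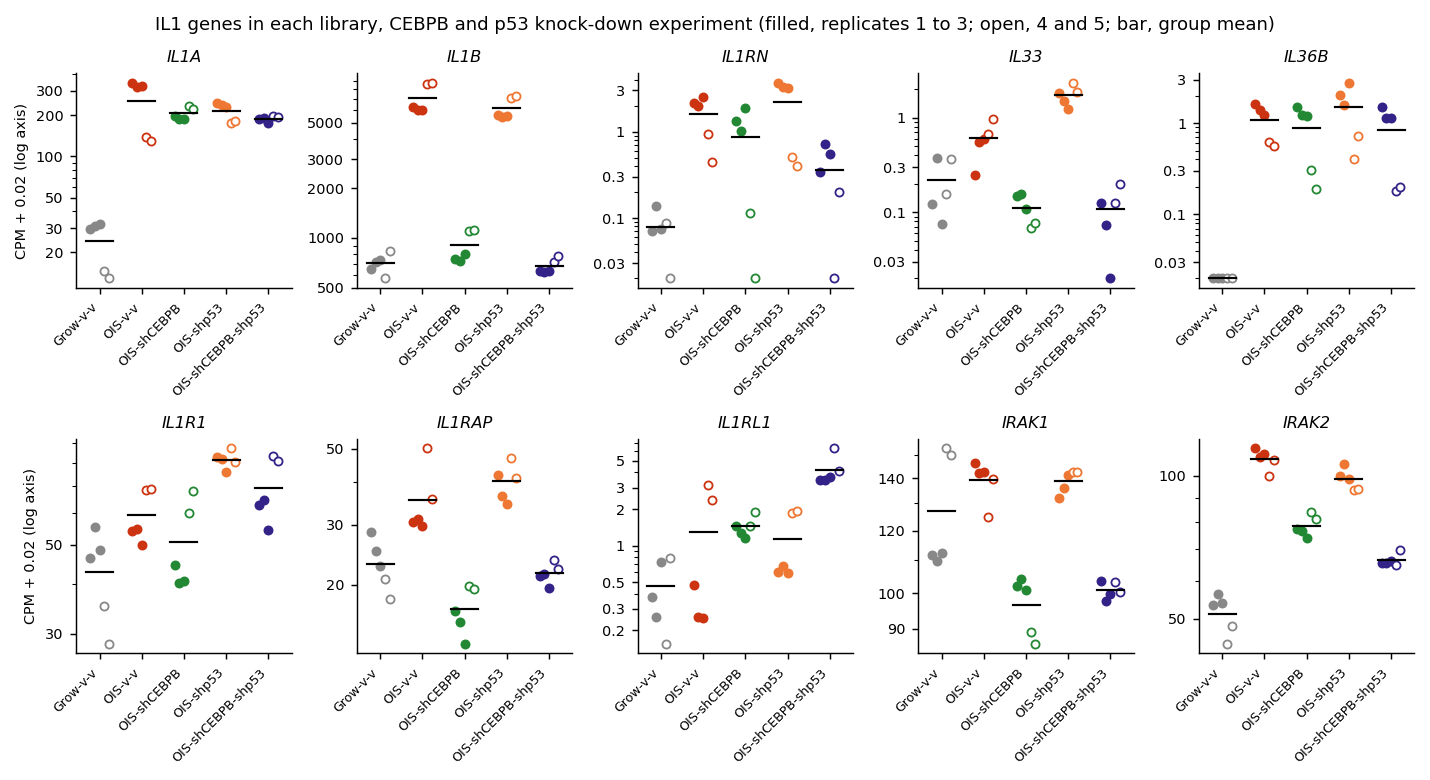
Level of each of the 10 genes in every library of the second experiment, on a log axis of CPM + 0.02, for the controls Grow-v-v and OIS-v-v and the knock-downs OIS-shp53, OIS-shCEBPB and OIS-shCEBPB-shp53. Filled points are replicates 1 to 3, open points replicates 4 and 5, and bars the mean of 5 libraries. *IL1B*, *IL1RAP*, *IRAK1* and *IRAK2* are lower in both groups with shCEBPB than in OIS-v-v, while *IL1A* overlaps.

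With the knock-down of p53, 2 of these genes were called in the fit that pooled both sets of replicates. *IL33* was at 1.8, 1.5, 1.21, 2.32 and 1.86 CPM in OIS-shp53, against 0.226, 0.532, 0.582, 0.649 and 0.961 CPM in OIS-v-v, and rose 2.94-fold without overlap (log2 fold change 1.55, standard error 0.30, edgeR adjusted p = 0.0131). *IL1R1* was at 83.0, 81.8, 75.9, 87.1 and 80.5 CPM, against 54.3, 54.9, 49.9, 68.7 and 69.0 CPM, also above every OIS-v-v library (log2 fold change 0.46, standard error 0.09, edgeR adjusted p = 0.0151, but 0.111 with all 5 groups in 1 fit). These 2 were called of 10 tested, both higher, and the groups of both did not overlap. *IL33* did not pass the filter on low counts when OIS-v-v was compared with Grow-v-v or OIS-shCEBPB. It entered this test with the OIS-shp53 libraries, where it is high, so the filter favoured a call of higher. Of 13378 genes, 4.44% were called (2.47% higher and 1.97% lower), and 7.29% did not overlap.

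With the replicate block, 22.7% of all genes and 4 members were called, *IL1B* at -0.19 (edgeR adjusted p = 0.00757) and *IRAK2* at -0.14 (edgeR adjusted p = 0.0209) being added. *IL1B* was at 5596, 5442, 5464, 7094 and 7314 CPM, each below every OIS-v-v library of the same set of replicates. *IL1A* again had opposite values, -0.48 in replicates 1 to 3 (edgeR adjusted p = 1.56e-09) and 0.41 in replicates 4 and 5 (edgeR adjusted p = 0.00184). The difference of -0.88 was called (standard error 0.07, edgeR adjusted p = 3.96e-08), along with 6.81% of all genes. The effect on *IL1R1* also differed between the sets, at 0.60 and 0.28 (difference 0.32, edgeR adjusted p = 0.0222). Within replicates 1 to 3, 7 members were called (34% of all genes), and within replicates 4 and 5 there were 4 (5.33%).

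With both knock-downs, *IL1B* was at 633, 624, 628, 719 and 776 CPM (log2 fold change against OIS-v-v -3.41, standard error 0.14, edgeR adjusted p = 1.01e-08). *IL1A* stayed between 176 and 197 CPM. *IL1RAP* fell by 0.72 on the log2 scale (standard error 0.13, edgeR adjusted p = 0.00124), *IRAK1* by 0.48 (standard error 0.05, edgeR adjusted p = 2.58e-05) and *IRAK2* by 0.72 (standard error 0.05, edgeR adjusted p = 6.50e-07), each below every OIS-v-v library. *IL1RN* fell by 2.20 on the log2 scale (standard error 0.59, edgeR adjusted p = 0.0128), with 6, 13, 9, 0 and 3 counts. *IL33*, not tested, had 8 counts against 51 in OIS-v-v, a 6.62-fold lower pooled level (95% exact interval 3.12 to 16.1) without overlap.

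*IL1RL1* moved the other way, at 3.45, 3.43, 3.62, 6.31 and 4.11 CPM, above every OIS-v-v library (log2 fold change 1.68, standard error 0.55, edgeR adjusted p = 0.0319, and DESeq2 adjusted p = 0.0549). Its rise was 3.47 in replicates 1 to 3 and 0.92 in replicates 4 and 5, a called difference of 2.54 (edgeR adjusted p = 1.12e-04), and for *IL1A* the difference was -1.39 (edgeR adjusted p = 3.55e-12) and for *IL1B* 0.25 (edgeR adjusted p = 0.00866), in a test that called 15.6% of all genes. Of 9 members tested, 1 was called higher and 5 lower, against 33.6% of 13388 genes (17.1% higher and 16.5% lower), and 6 of 10 did not overlap, against 24.1%. Those without overlap include *IL33*, which was not tested, while the 24.1% covers genes tested. *IL1RL1*, the 1 called higher, did not pass the filter on low counts in OIS-v-v against Grow-v-v. *IL1RN*, called lower, did not pass it in OIS-shCEBPB-shp53 against Grow-v-v. Each was tested here with the libraries of the group where it is high, so the filter favoured the direction called. The block added *IL1R1* at 0.21 (edgeR adjusted p = 0.00386), with 43.4% of all genes called. The shares were 53.7% within replicates 1 to 3 and 28.7% within replicates 4 and 5, with 8 members called in each set. The call of *IL1RL1* was lost in 6 of the 10 fits that left out 1 library.

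**Figure D5:**
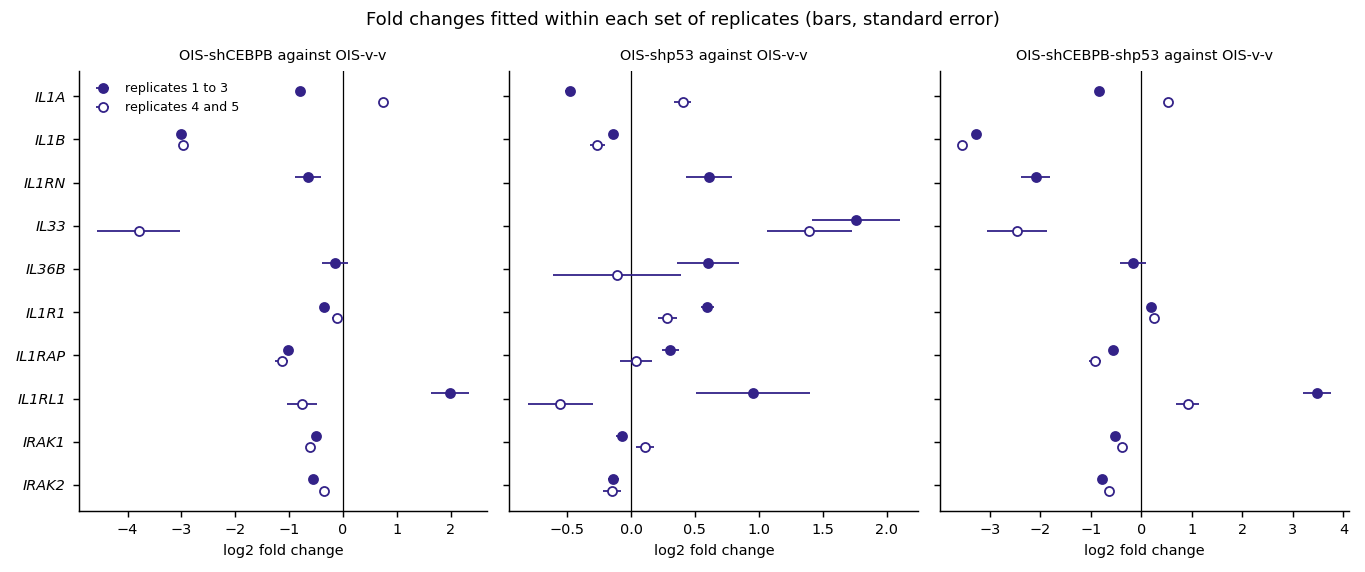
Log2 fold change against OIS-v-v (x axis) of each gene tested (y axis) in replicates 1 to 3 (filled) and in replicates 4 and 5 (open), for the 3 knock-down groups, with bars of 1 standard error either side. *IL1A* lies below 0 in the first set and above 0 in the second in all 3 comparisons, while *IL1B* under shCEBPB has nearly the same value in both.

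Against growing cells, OIS-shCEBPB-shp53 cells kept a raised *IL1A* but not *IL1B*. *IL1A* was 7.83-fold above Grow-v-v (log2 fold change 2.97, standard error 0.23, edgeR adjusted p = 7.22e-07), while *IL1B* differed by -0.05, with 2 standard errors either side from -0.26 to 0.16 (edgeR adjusted p = 0.736) and overlapping libraries. In replicates 1 to 3 alone *IL1B* was called lower, at -0.15 (edgeR adjusted p = 0.0102), and in replicates 4 and 5 it was at 0.10, a difference that was not called (edgeR adjusted p = 0.328). The rise of *IL1A* was 2.58 in replicates 1 to 3 and 3.82 in replicates 4 and 5, and that difference was called (-1.23, edgeR adjusted p = 1.29e-05), in a test that called 19.8% of all genes. *IL1RL1* was 9.37-fold higher (edgeR adjusted p = 8.03e-06), from between 0.136 and 0.766 CPM in Grow-v-v. *IL1R1* was higher by 0.70 (standard error 0.17, edgeR adjusted p = 0.00460) and *IRAK2* by 0.38 (standard error 0.07, edgeR adjusted p = 9.46e-04), whereas *IRAK1* fell by 0.33 on the log2 scale (standard error 0.10, edgeR adjusted p = 0.02). *IL1RAP* did not pass, at -0.09 (standard error 0.11). These pooled values join unequal sets for *IL1R1*, at 0.29 in replicates 1 to 3 and 1.37 in replicates 4 and 5 (difference -1.07, edgeR adjusted p = 3.24e-04), for *IRAK1*, at -0.14 and -0.57 (difference 0.44, edgeR adjusted p = 0.00371), and for *IL1RAP*, at -0.28 and 0.24 (difference -0.51, edgeR adjusted p = 0.0256). *IL36B*, with 0 counts in Grow-v-v and 74 here, was at least 22.9-fold higher. Of 7 members tested, 4 were called higher and 1 lower, against 49.9% of 13395 genes (24% higher and 25.8% lower), and 5 of 10 did not overlap, against 38.7%. Those without overlap include *IL36B*, which was not tested, while the 38.7% covers genes tested. Of the 4 called higher, *IL1RL1* did not pass the filter on low counts in OIS-v-v against Grow-v-v. It entered this test with the OIS-shCEBPB-shp53 libraries, where it is high, so the filter favoured a call of higher.

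Whether both knock-downs together did more or less than the sum of the single ones was tested with an interaction term. None of the 10 members was called by edgeR, against 0.0432% of 13873 genes, and at an unadjusted p under 0.05 there were 2, *IL1RL1* at 1.79 (standard error 0.72) and *IL33* at -1.59 (standard error 0.75). DESeq2 called 0 members too. Within replicates 1 to 3 there were 2 members called (3.32% of all genes) and within replicates 4 and 5 there were 3 (2.13%), *IL1A* in both with opposite signs (0.41 and -0.62).

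In H1299 cells, the ligand genes and *IL1RL1* were at or near 0, while the receptor and kinase genes were present. *IL1A* had between 1 and 5 counts in each of the 7 H1299 libraries, 21 in all, and 17 in the 6 H1299-shA1 libraries. *IL1B* had 3 and 7 counts, *IL33* 1 and 0, and *IL1RL1* 0 and 1. *IL1RN* and *IL36B* had 0 counts in both groups, which allows up to 0.0199 CPM over H1299 and 0.0247 over H1299-shA1. *IRAK1* lay between 370.8 and 396.6 CPM in H1299 (median 386.8) and between 343.4 and 439.1 CPM in H1299-shA1 (median 390.0), and per length ranked 268 of 44503 genes in H1299.

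None of the 4 members tested was called in H1299-shA1 against H1299, against 15.6% of 14840 genes (8.65% higher and 6.93% lower), and none was without overlap, against 5.21%. At an unadjusted p under 0.05 there was 1, *IRAK2*, at 28 to 46.9 CPM (median 33) in H1299 and 33.6 to 50.8 CPM (median 41.4) in H1299-shA1, a log2 fold change equal to 0.26 (standard error 0.11, edgeR adjusted p = 0.117). DESeq2 called 0 members. *IRAK2* was called with H1299 replicate 1 or H1299-shA1 replicate 7 left out. *IL1R1* was at 16.5 ± 2.38 CPM (SD, n = 7) and 18.3 ± 2.48 CPM (SD, n = 6), at 0.15 (2 standard errors either side, -0.04 to 0.34), and *IL1RAP* at 27 ± 1.95 and 26.2 ± 0.973 CPM, at -0.04 (-0.14 to 0.07). For *IRAK1* the interval around 0.01 reached from -0.07 to 0.10.

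Per length, the order of the members was led by *IL1B* in every IMR90 group, from 218 CPM per kilobase of exon in OIS-shCEBPB-shp53 to 4229 in OIS-shA1, and by *IRAK1* in both H1299 groups (122.3 and 123.4). In Grow, *IRAK1* (30.2), *IL1A* (26.9) and *IRAK2* (15.2) followed, and the library ranges of these neighbours overlap in that order. In OIS, *IL1A* (143) stood clear of *IRAK1* (39.1) and *IRAK2* (37.2), which overlap each other, and *IL1R1* (10.4) and *IL1RAP* (5.25) came next without overlap. *IL1RL1*, *IL36B*, *IL1RN* and *IL33* were lowest in OIS, between 0.265 and 2.03, and overlap as neighbours. In OIS-shA1, *IRAK2* (43.8) stood before *IRAK1* (38.5), again with overlap.

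Across the 32 libraries of the first experiment, the genes most like *IL1A* by Pearson's r of log2 CPM, among 12564 genes, were *RP11-1002K11.1* (0.991), *TCIM* (0.991) and *SERPINB2* (0.991), and those most like *IL1B* were *NRG1* (0.994), *SERPINB2* (0.991) and *RP11-1002K11.1* (0.990). *IL1A* and *IL1B* correlated with each other at 0.984 and with *IRAK2* at 0.944 and 0.970, whereas *IL1R1* and *IL1RAP* lay between 0.0132 and 0.0470 with either. These values are a description, since the libraries share 4 groups and differ in depth.

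Other genes of the pathway were taken from lists by role, none of them members. Among 11 genes of IL1-induced NF-kB feedback and output, 8 were called higher and 2 lower in OIS against Grow, 5 higher and 1 lower in Grow-shA1 against Grow, 3 higher and 4 lower in OIS-shA1 against OIS, 2 higher and 7 lower in OIS-shCEBPB against OIS-v-v, and 3 higher and 8 lower in OIS-shCEBPB-shp53 against OIS-v-v. Of all genes, edgeR called 74.8%, 29.9%, 35.9%, 17.1% and 33.6% in these 5 comparisons, in that order. In OIS-shp53 against OIS-v-v, edgeR called 0 of these 11 and 4.44% of all genes. Their median log2 fold changes in the first 5 of these comparisons were 0.47, 0.27, -0.08, -0.48 and -0.51, against 0.03, 0.0067, -0.0002, -0.0020 and -0.01 over all genes. *PTGS2*, which codes for the prostaglandin synthase COX-2, rose from 222.4 ± 98.9 CPM in Grow to 1253 ± 119.8 in OIS and to 2652 ± 262.1 in OIS-shA1 (SD, n = 8 each), and fell from 872 ± 48.7 CPM in OIS-v-v to 106.6 ± 19.9 in OIS-shCEBPB (SD, n = 5 each, log2 fold change -3.04, edgeR adjusted p = 1.84e-08). *CCL20*, a chemokine gene, went the other way with shA1, from 18.1 ± 2.85 CPM in OIS to 8.79 ± 2.03 in OIS-shA1 (log2 fold change -1.05, edgeR adjusted p = 5.06e-08). *BIRC3*, an inhibitor of apoptosis, rose in OIS-shCEBPB, from 19.4 ± 3.07 to 58.1 ± 15.3 CPM (log2 fold change 1.57, edgeR adjusted p = 7.03e-05).

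Of 20 genes of IL1 receptor signalling, 7 were called higher and 6 lower in OIS against Grow, 3 higher and 2 lower in Grow-shA1 against Grow, 5 higher and 3 lower in OIS-shA1 against OIS, 2 and 0 in OIS-shCEBPB against OIS-v-v, and 5 and 0 in OIS-shCEBPB-shp53 against OIS-v-v. The shares of all genes called were, in the same order, 74.8%, 29.9%, 35.9%, 17.1% and 33.6%. Of the genes of IL1 processing and release tested, 5 of 9 were higher and 3 lower in OIS (74.8% of all genes called). In Grow-shA1 against Grow, 3 of 9 were higher and 0 lower (29.9%), and in OIS-shA1 against OIS, 6 of 9 were higher and 0 lower (35.9%). Among other ligands of the family, *IL36RN*, an antagonist of the IL36 receptor, had 1 count in Grow and 488 in OIS, a ratio of 507 (95% exact interval 90.5 to 20000). In H1299-shA1 against H1299, 3 of 7 processing and release genes tested were higher and 0 lower (15.6% of all genes called). Of these, *CASP4*, an inflammatory caspase, rose from 18.5 ± 1.76 (SD, n = 7) to 27.6 ± 3.67 CPM (SD, n = 6, log2 fold change 0.58, edgeR adjusted p = 5.96e-05) without overlap. With overlapping groups, *NLRP3* (0.81) and *IRAK4* (0.45) were also called higher there, and *SIGIRR* lower (-0.43).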

How the data were processed

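Reads had been aligned to hg19 with STAR, and the deposited count tables hold raw counts per gene over GENCODE19 exons, made by the authors with featureCounts (version 1.5.2 per the file headers) without regard to strand, as fragments in the *HMGA1* table of IMR90 cells and as reads in that of H1299 cells. The table of the *CEBPB* and p53 knock-downs carries no command line. Reads from the strand opposite a gene therefore cannot be told from its own. The commands in the file headers name no option to count a read for more than 1 gene, so reads over exons of several genes were left uncounted in those tables.

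From these counts, each comparison was fitted with edgeR 4.0.16 (filterByExpr, TMM factors, quasi-likelihood F test, R 4.3.3) on the libraries of its groups, with Benjamini-Hochberg adjustment over all genes tested and a threshold of 0.05. Standard errors are the log2 fold change divided by the square root of F. Ratios of pooled counts have 95% exact intervals, which cover counting error only, as does the limit of 3 counts where a count was 0. Both interaction tests used all groups they join. The scripts were tested on simulated data. DESeq2 1.42.0, other scalings and filters, a replicate block and each library left out were the alternatives. Same-numbered libraries of the *CEBPB* and p53 experiment deviated together in every pair compared (correlations 0.151 to 0.638). The split between the sets of replicates can give such correlations by itself. Differently numbered libraries of the same set were not compared, so pairing by number within a set was not tested. Library totals lay between 1903607 and 24890797 counts.

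The members and the lists of other pathway genes were chosen with earlier results of these data known. Genes named outside the members were, in each main comparison, at most the 4 with the largest change among those called in the lists, at a mean of 1 CPM or more. Those most like *IL1A* and *IL1B* were the 3 with the highest Pearson's r at a mean of 1 CPM or more, which *IL33*, also planned, did not reach. The level of the other knock-down target is not reported here. No library was left out of the main fits, and 0 columns of samples went unused. The sample labels speak of 6 replicates per condition where 8 were given for the first experiment.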

Additional observations from a re-analysis of the deposited data

Results flagged for a closer look

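In 4 of 85 groups of libraries tested, 1 library lay farther from the others than Dixon's 95% critical value allows, and chance alone gives about 1 group in 20. *IL1A* was at 513.0 CPM in OIS-shA1 replicate 7, with the others between 368.9 and 429.3 CPM. *IL1RAP* was at 50.05 CPM in OIS-v-v replicate 4, with the others between 29.79 and 35.5 CPM. *IL1RL1* was at 6.307 CPM in OIS-shCEBPB-shp53 replicate 4, with the others between 3.433 and 4.111 CPM. *IRAK2* was at 69.71 CPM in OIS-shCEBPB-shp53 replicate 5, with the others between 64.87 and 66.08 CPM.

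The effect of shA1 differed between senescent and growing cells for 3 genes by the interaction test. The log2 difference was -1.12 for *IL1B* (edgeR adjusted p = 0.00102), -1.35 for *IL1RL1* (edgeR adjusted p = 7.34e-05) and -0.56 for *IRAK2* (edgeR adjusted p = 7.76e-06).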

How the results depend on the processing

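DESeq2 and upper-quartile factors left the 12 counts of members called within 1.5 times of those reported. With a fold of at least 1.5 asked for, 5 members were called in OIS against Grow, 3 in Grow-shA1 against Grow, 3 in OIS-shA1 against OIS, 2 in OIS-shCEBPB and 1 in OIS-shp53 against OIS-v-v, and 3 in OIS-shCEBPB-shp53 against Grow-v-v. At an adjusted p under 0.01 there were 0 in OIS-shp53. The shares of all genes called under these 2 rules are not given, so these counts have no background. With at least 10 counts in every library there were 5 in OIS-shA1 against Grow-shA1 (73.8% of all genes) and 1 in OIS-shp53 (4.49%), where fewer genes were tested. Without a filter there were 8 in OIS-v-v against Grow-v-v (26.2%), *IL1R1* was at -0.001 in OIS-shA1 against Grow-shA1 and *IRAK1* at 0.0002 in OIS-shp53. All groups in 1 fit gave 9 in OIS-v-v against Grow-v-v (54.6% of all genes, against 45.8% with 2 groups) and 1 in OIS-shp53 (3.63%).

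Scaling by library sizes alone moved the median log2 fold change of all genes from 0.03 to 0.22 in OIS against Grow and from -0.01 to -0.13 in the shA1 interaction. Genes called higher and lower went from 5164 and 4781 to 6963 and 3561 in OIS against Grow, from 1930 and 1975 to 2424 and 1597 in Grow-shA1 against Grow, from 2500 and 2284 to 1553 and 4037 in OIS-shA1 against OIS, and from 1697 and 1584 to 888 and 3456 in the interaction. It gave 5 members called in that interaction (31.2% of all genes), with *IRAK1* at -0.10, and turned *IL1R1* to 0.0208 in OIS against Grow, *IRAK1* to 0.0189 in OIS-shp53, *IL1B* to 0.0423 and *IL1RAP* to 0.0023 in OIS-shCEBPB-shp53 against Grow-v-v, and *IL1R1* to 0.0044 in the interaction of both knock-downs. Upper-quartile factors gave *IRAK1* 0.0081 in OIS-shp53. The cause of each reversal was not tested.

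The split of the *CEBPB* and p53 experiment into replicates 1 to 3 and 4 and 5 was chosen after seeing the data. Replicates 1 to 3 gave 8 members called in OIS-shCEBPB (32.6% of all genes), 7 in OIS-shp53 (34%), 8 in OIS-shCEBPB-shp53 against Grow-v-v (61.6%) and 2 in the interaction of both knock-downs (3.32%), with *IL1RL1* at 0.95 in OIS-shp53. Replicates 4 and 5 gave 7 in OIS-shCEBPB (24.6%), 4 in OIS-shp53 (5.33%) and 3 in that interaction (2.13%). In them *IRAK1* was at -0.19 in OIS-v-v against Grow-v-v, *IL1A* at 0.75 and *IL1RL1* at -0.76 in OIS-shCEBPB, *IL1A* at 0.41, *IL36B* at -0.11 and *IRAK1* at 0.11 in OIS-shp53, *IL1A* at 0.54 in OIS-shCEBPB-shp53, *IL1B* at 0.10 and *IL1RAP* at 0.24 in OIS-shCEBPB-shp53 against Grow-v-v, and *IL1A* at -0.62 and *IL1R1* at 0.0766 in that interaction.

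With the replicate block, 4 members were called in OIS-shp53 against OIS-v-v (22.7% of all genes) and 1 in H1299-shA1 against H1299 (16.4%), where *IRAK2* was at 0.33 (edgeR adjusted p = 0.0082) and *IRAK1* at -0.0030. In the *HMGA1* experiments the numbers do not pair the libraries by the correlation of same-numbered deviations (-0.201 to 0.216 in IMR90 and -0.207 to 0.369 in H1299), and the block left the counts at 8, 5, 8 and 8 in the 4 comparisons of IMR90 cells.

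With each library left out in turn, 0 to 1 members were called in H1299-shA1 against H1299. The log2 fold change ranged from -0.0164 to 0.0355 for *IL1R1* and from -0.0107 to 0.0627 for *IL1RAP* in OIS-shA1 against Grow-shA1, from -0.14 to 0.79 for *IL1RL1* in OIS-shCEBPB, from -0.50 to 0.44 for *IL1RL1* and -0.0388 to 0.0171 for *IRAK1* in OIS-shp53, from -0.11 to 0.0212 for *IL1B* in OIS-shCEBPB-shp53 against Grow-v-v, from -0.0218 to 0.0471 for *IRAK1* in H1299, from -0.68 to 1.93 for *IL36B* and -0.0217 to 0.051 for *IRAK1* in the shA1 interaction, and from -0.0274 to 0.28 for *IL1A* and -0.0783 to 0.12 for *IL1R1* in that of both knock-downs. In the shA1 interaction *IL1RAP* was called in 8 of 32 such fits. Depth limits *IL1RN*, *IL33* and *IL36B*, with at most 1, 8 and 1 counts in any Grow library.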
